A study of Mus musculus with 6 samples.

Results

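A set of 8 transcription factor genes of T lineage specification, commitment and gamma delta choice, chosen by name, was followed in early T cell progenitors: Tcf7, Lef1, Gata3, Bcl11b, Myb, Satb1, Sox4 and Sox13. All 8 were found by symbol among the 22609 genes of the authors' deposited table, and all 8 had been tested by the authors. Fetal thymi of C57BL/6 mice were the source, and the progenitors were sorted as lineage-negative, CD44-positive, c-Kit-positive cells without CD25, CD4 or CD8. The control group had 3 libraries of wild-type genotype. The double-knockout (dKO) group had 3 libraries of genotype E2Afl/flHEBfl/flIL7RCre, in which a Cre expressed from the Il7r locus deletes both E2A (encoded by Tcf3) and HEB (encoded by Tcf12), and its cells were also sorted as YFP-positive, which control cells were not. Gate and genotype therefore cannot be told apart. Neither the age of the embryos nor the animal behind each library is known from the labels, so p-values reflect the spread among these libraries, which could be technical in part. The series asks how E and Id proteins govern the choice between innate and adaptive lymphoid fates.

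E proteins bind DNA at E-box motifs and drive the expression of early T cell genes. In the thymus, Notch signals first induce Tcf7 (TCF-1) and Gata3 (GATA-3), which specify the T lineage, and Bcl11b is then switched on at commitment. Myb, Satb1 and Sox4 act in progenitors and early thymocytes, and Sox13 is a factor of gamma delta T cells. Several of these factors also serve innate lymphoid cells (ILCs): TCF-1 and GATA-3 are needed for their progenitors, and GATA-3 and Bcl11b remain in type 2 cells (ILC2).

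The promoters of the members were read because the deleted factors bind E-boxes. RefSeq (GRCm38.p6) gives 16 start windows for the 8 genes, each taken as the 250 bases before the start. Only 4 of these lie outside the gene's own RefSeq span, and 2 of those, for Myb and Sox4, hold no annotated exon beyond 30 bases. Both genes fell, and they are printed 5′ to 3′ with any CANNTG in capitals, the Sox4 window without the 14 bases that an annotated exon covers.
Myb, chr10:21160985-21161234, minus strand: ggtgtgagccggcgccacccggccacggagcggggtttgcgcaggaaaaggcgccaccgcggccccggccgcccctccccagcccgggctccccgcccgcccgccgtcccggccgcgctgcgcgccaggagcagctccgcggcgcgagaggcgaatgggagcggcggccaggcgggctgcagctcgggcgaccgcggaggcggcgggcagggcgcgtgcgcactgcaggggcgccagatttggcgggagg
Sox4, chr13:28953714-28953949, minus strand: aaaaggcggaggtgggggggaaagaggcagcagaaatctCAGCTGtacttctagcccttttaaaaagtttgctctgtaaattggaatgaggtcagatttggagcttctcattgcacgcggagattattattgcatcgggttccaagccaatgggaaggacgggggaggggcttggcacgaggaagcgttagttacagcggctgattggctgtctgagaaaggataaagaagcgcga
The Sox4 window holds 1 E-box, CAGCTG, which begins 211 bases before the start, and the Myb window holds none. An E-box (CANNTG, which covers the other motifs; all motifs were counted on both strands) was present in 8 of the 16 member windows, against 66.2% of the 32851 windows of all genes. These 8 windows belong to 4 members. Windows of 1 gene can overlap: 2 of Lef1 share the same CAAGTG, so the windows are not independent. CAGCTG was in 4 of 16, in 1 window each of Tcf7, Lef1, Satb1 and Sox4, against 13.0% of all windows. CAGGTG or its reverse complement CACCTG was in 1 of 16, for Satb1, against 17.2%. The single windows of Gata3, Bcl11b, Myb and Sox13 held no E-box. Such matches describe letters in a short window and not binding.

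The members did not move as a block. At the authors' adjusted p under 0.05, 5 of the 8 members were lower in dKO (Myb, Sox13, Sox4, Satb1 and Tcf7), 2 were higher (Gata3 and Lef1) and 1, Bcl11b, did not pass per the authors' deposited table. Over all 16241 genes tested there, 29.0% were called, 15.1% higher and 13.8% lower. Calls were more frequent among abundant genes: of the 7826 genes at least as abundant as Sox13, the least abundant member, 41.5% were called, 22.5% higher and 19.0% lower. The median log2 change (dKO minus control) of the members was -0.59, against -0.02 for all genes tested. Summed over the members, the mean normalised count was 44631 in control and 46379 in dKO, so the total hardly differed while its makeup did. Myb gave 32.7% of that sum in control and 6.39% in dKO, and Gata3 gave 15.8% and 49.5%. These are shares of counts and not of molecules, since the genes differ in length. In bulk libraries, fewer cells of a type and less RNA per cell cannot be told apart.

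**Figure D1:**
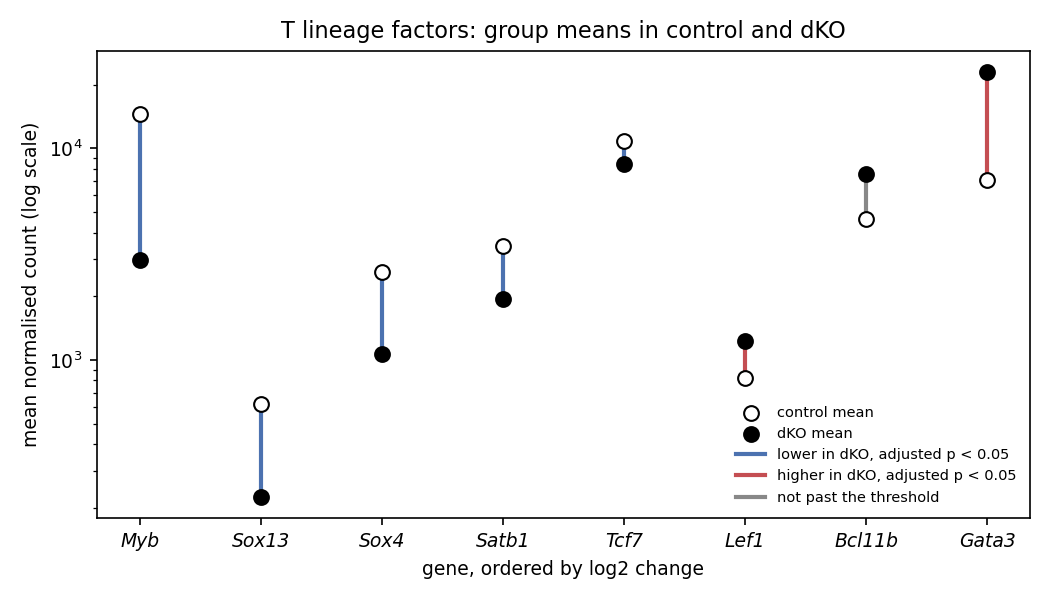
Mean normalised count (log scale) of each of the 8 genes in control (open circles) and dKO (filled circles), 1 mean of 3 libraries per group and no error, ordered by log2 change; line colour gives the authors' call. Myb, Sox13, Sox4, Satb1 and Tcf7 are lower in dKO, Lef1 and Gata3 are higher, and the grey line of Bcl11b marks no call.

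Both deleted genes were lower in dKO, with Tcf3 at means of 8931 and 364 and Tcf12 at 3845 and 562 per the authors' deposited table. The table gives 1 mean of normalised counts (counts divided by a size factor) per gene and group, summing to 22.1 M in control and 23.4 M in dKO. It gives no value per library and no standard error. Low means could be resolved into whole reads per library, which are named below by size factor (0.823, 0.952 and 1.02 in control, 1.04, 1.08 and 1.16 in dKO), since they could not be tied to replicate numbers. Among the members this worked only for Sox13 in dKO. Genes of the sort markers were present in both groups: Kit had means of 14094 and 19067 and Cd44 of 3220 and 2765 per the authors' deposited table. They belong to a list of 10 markers of early T cell progenitors, whose sum was 40870 in control and 33791 in dKO (3 rose, 4 fell). The 4 that fell were Notch1 (10176 and 1829), Cd34 (4957 and 1770), Flt3 (1080 and 327) and Hes1 (391 and 117). Il2ra, which encodes the CD25 that the gate excluded, was nevertheless at 8417 and 8536 per the authors' deposited table. Markers of other cells moved along with the members' changes per the authors' deposited table. The summed mean of 9 ILC2 markers was 10104 in control and 44058 in dKO (6 rose, 0 fell). Icos alone had 4367 and 28812 of it, and Il1rl1, Il5 and Areg did not pass. The summed mean of 8 NK and ILC1 markers was 4519 and 9445 (7 rose, 1 fell). Il2rb had 511 and 6291 of it, and Gzma, which fell, 3601 and 1283. The sum of 8 markers of lymphoid tissue inducer cells and ILC3 was 2517 and 12384 (4 rose, 1 fell) there. The sum of 8 markers of DN2 and DN3 thymocytes, the next stages, was 41440 and 23635 (0 rose, 6 fell), and that of 6 double positive markers was 4987 and 1102 (0 rose, 3 fell). Those 3 were Arpp21 (2928 and 143), Aqp11 (885 and 72.4) and Cd4 (104 and 34.8). The co-receptor genes Cd8a (9.51 and 27.2) and Cd8b1 (1.10 and 0.288) were low in both groups and did not pass, so double positive cells in control cannot be read from this sum. Among 8 myeloid markers the sum was 8990 and 2593 (1 rose, 3 fell, Cd14 at 0 in both groups), with Mpo alone at 7310 and 1457. Among 8 erythroid markers the sum was 1233 and 149 (0 rose, 1 fell). The 1 that fell was the beta-globin entry Beta-s (1032 and 12.3), which gave most of the control sum. The 3 other globin genes were at 0 in both groups. The sum of 8 B cell markers was 1286 and 1144 (1 rose, 2 fell, Pax5 at 0 in both), mostly from Cd79b (1143 and 1041). For 6 dendritic cell markers the sum was 3360 and 4390 (1 rose, 2 fell, Siglech at 0 in both). Bst2, which did not pass, had 1937 and 3600 of it. For 6 thymic epithelial markers the sum was 344 and 481 (none called). The part of these markers in the members' changes was not tested.

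TCF-1 and LEF-1, encoded by Tcf7 and Lef1, are sister HMG box proteins that bind the same DNA motif and recruit beta-catenin or Groucho co-repressors. Their genes differed in opposite directions. Tcf7 had means of 10825 in control and 8433 in dKO per the authors' deposited table, so dKO kept 77.9% of the control level, a fall of 1.28-fold (log2 change -0.36, authors' adjusted p = 0.00157). It was the smallest called change among the members, and 18.5% of the abundant genes fell further. Lef1 had means of 825 and 1235 per the authors' deposited table, a rise to 149.6% of the control level (log2 change 0.58, authors' adjusted p = 0.000642). The ratio of Tcf7 to Lef1 as normalised counts was 13.1 in control and 6.83 in dKO. Per kb of merged exon (2.625 kb for Tcf7 and 8.788 kb for Lef1) the ratio was 43.9 and 22.9. By either measure Tcf7 stayed far above its sister gene. Whether the change of one gene differed from that of the other was not tested.

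Of the remaining genes of the TCF/LEF family, 1 fell and 1 did not pass. Tcf7l2 (TCF-4 in the Wnt literature, unrelated to the E protein gene Tcf4) fell 6.28-fold, from 680 to 108 per the authors' deposited table (authors' adjusted p = 5.5e-10). Its dKO libraries held 81.9, 84.6 and 158 normalised counts, so the highest dKO library was still far below the control mean. Tcf7l1 did not pass (20.2 and 59.0 per the authors' deposited table), with 12.6 to 30.4 in the control libraries and 19.3 to 92.6 in the dKO libraries, which overlap. Among the 15 tested cofactors of the pathway per the authors' deposited table, 1 rose and 5 fell, 9 were not called, and the median log2 change was -0.13. The Groucho co-repressor gene Tle3 fell 2.88-fold, from 3866 to 1344, per the authors' deposited table (authors' adjusted p = 7.67e-35), and Tle1 fell 2.49-fold, from 217 to 87.1. Aes, which encodes a short Groucho-related protein, rose 1.52-fold from 2555 to 3876 per the authors' deposited table, the single cofactor to rise. Bcl9, a beta-catenin partner, fell 1.57-fold from 396 to 253 per the authors' deposited table. Ctnnb1, beta-catenin itself, fell 1.22-fold from 5402 to 4425 and Tle4 1.31-fold from 1019 to 778 there; both were named after their values were seen. Pygo2 (means of 2107 and 2394) and Gsk3b (1902 and 1737) did not pass per the authors' deposited table.

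A list of Wnt feedback genes also split; it mixes known TCF/LEF targets such as Axin2 with other Wnt pathway genes, among them Dkk3, a divergent Dkk family gene not established as such a target. Of 12 tested per the authors' deposited table, 5 rose and 2 fell, 5 were not called, and the median log2 change was 0.70. Axin2, a negative feedback gene of the pathway, rose 5.41-fold from 114 to 616 per the authors' deposited table (authors' adjusted p = 9.04e-23), and its control libraries held 93.5, 109 and 138. Rnf43, which encodes a ligase that removes Wnt receptors, rose 6.11-fold from 287 to 1755 per the authors' deposited table (authors' adjusted p = 1.09e-17), and its relative Znrf3 rose 1.73-fold. Dkk3 was at 0 in control and had a dKO mean of 95.8 per the authors' deposited table, at least 78.8-fold higher against a floor of 3 reads over the control group, and its dKO libraries held 45.3, 109 and 133. Lgr6, an R-spondin receptor, was at 0 in control and had a dKO mean of 36.2 per the authors' deposited table, at least 29.8-fold higher, but its dKO mean was 17.1 once the library of size factor 1.16 was left out. Znrf3, Dkk3 and Lgr6 were named after their values were seen. By contrast Myc fell 2.70-fold and Ccnd1, which encodes cyclin D1, fell 4.40-fold from 319 to 72.5 per the authors' deposited table. Nkd1 (53.3 and 81.5) and Apcdd1 (16.4 and 5.18) did not pass there.

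GATA-3 is a zinc finger factor needed for T cell specification and for ILC2. Gata3 had means of 7051 in control and 22961 in dKO per the authors' deposited table, a rise of 3.26-fold (log2 change 1.70, authors' adjusted p = 7.56e-67). The p-value of Gata3 ranked 64 among the 16241 genes tested, and 2.89% of the abundant genes rose further. It was the only member to rise at least 2-fold. In the rest of its family Gata2, a progenitor and mast cell factor, rose 1.98-fold from 523 to 1037 per the authors' deposited table (authors' adjusted p = 3.3e-08). Gata1 (257 and 347) and the GATA cofactor gene Zfpm1 (134 and 131) did not pass per the authors' deposited table, and the 3 libraries of each group overlapped for Zfpm1, with 116 to 154 in control and 111 to 148 in dKO. Gata4 and Gata5 were listed at 0 in both groups.

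Type 2 effector genes that GATA-3 is known to activate held 6 that rose, 0 that fell and 4 that did not pass among 10 tested per the authors' deposited table, with a median log2 change of 2.41. Ccr8, a chemokine receptor gene, rose 7.39-fold from 914 to 6757 per the authors' deposited table (authors' adjusted p = 1.14e-130). Il13 rose 11.2-fold per the authors' deposited table, and its libraries held 27.3, 27.9 and 30.3 in control and 290, 306 and 361 in dKO. Il4 rose 7.30-fold per the authors' deposited table, with 51.7, 76.5 and 85.1 in the control libraries and 409, 541 and 606 in the dKO libraries. For both cytokine genes the groups lay far apart. Il9r rose 2.37-fold per the authors' deposited table, while Il1rl1 (866 and 1217) and Gpr44 (163 and 205.5) did not pass. In genes known to be bound or activated by TCF-1 and GATA-3 in T specification the picture differed: of 21 tested outside the members, 6 rose, 10 fell and 5 did not pass per the authors' deposited table, with a median log2 change of -0.03. Rag2, a recombinase gene, fell 15.1-fold (authors' adjusted p = 1.37e-123) per the authors' deposited table. Ptcra, the pre-T cell receptor alpha gene, fell from 924 to 1.52 per the authors' deposited table, where the dKO mean rests on 2, 2 and 1 reads. Cd28 rose 9.80-fold from 124 to 1217 per the authors' deposited table. Lat (5164 and 5042) and Il2ra did not pass.

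**Figure D2:**
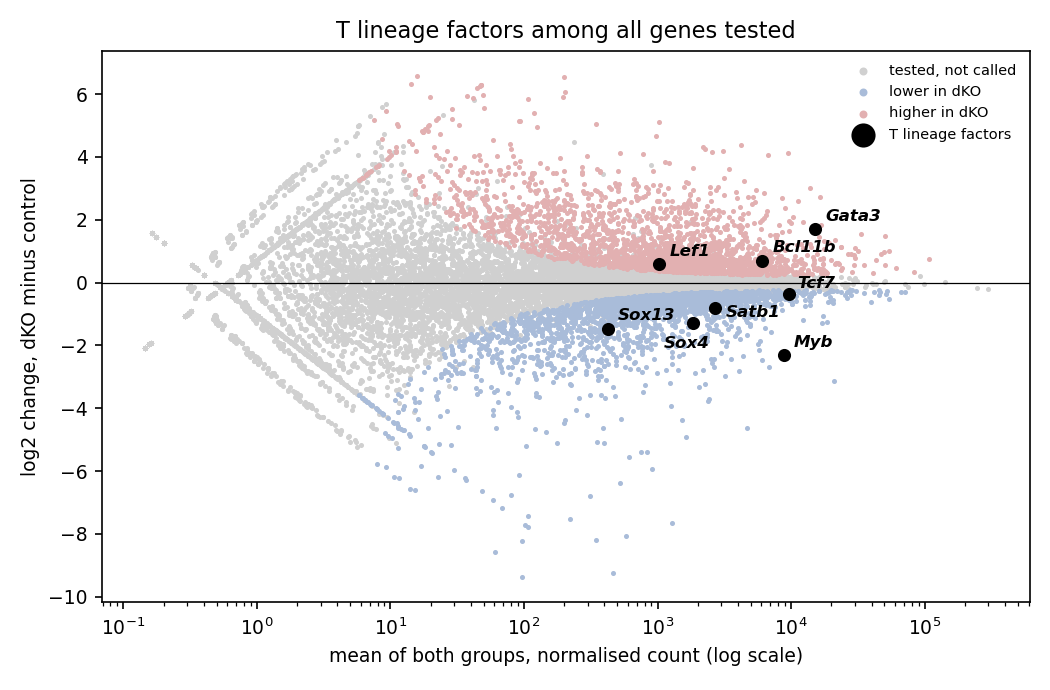
Log2 change (dKO minus control) against the mean normalised count of both groups (log scale) for all 16241 genes tested, with a group at 0 set to a floor of 3 reads; colours give the authors' calls and black points the 8 factors. Gata3 at 1.70 and Myb at -2.30 sit at the edges of the cloud for their abundance, and Tcf7 at -0.36 lies close to the line of no change.

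Bcl11b encodes a zinc finger repressor that closes off non-T fates at commitment. Its means were 4649 in control and 7548 in dKO per the authors' deposited table, 1.62-fold higher (log2 change 0.70), yet it did not pass (authors' p = 0.0489, adjusted p = 0.135). The size of the difference exceeded that of Lef1 and of Tcf7, which both passed. To place it, genes were taken whose mean over both groups was within 1.5-fold of a member's and whose log2 change was within 0.15 of it. For Bcl11b there were 55 such genes, of which 52 (94.5%) were called and 0 had a larger p-value than Bcl11b per the authors' deposited table; their median p was 1.28e-09. Among the 110 genes at least as abundant as Bcl11b and at least as far changed, it was 1 of 3 that did not pass per the authors' deposited table, together with Eml4 (4791 and 8434) and Rap1b (5137 and 8366). The values per library of Bcl11b could not be resolved at this level, so which libraries were high or low is not known, and the part of any 1 library was not tested. For Sox4, 20 of 20 like genes were called and 1 had a larger p. For the other members with at least 20 such genes, the p-value lay within the bulk: 53 of 76 had a larger p than Tcf7, 181 of 258 than Lef1, 40 of 52 than Satb1 and 24 of 31 than Sox13. These comparisons were chosen after the values were seen.

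**Figure D3:**
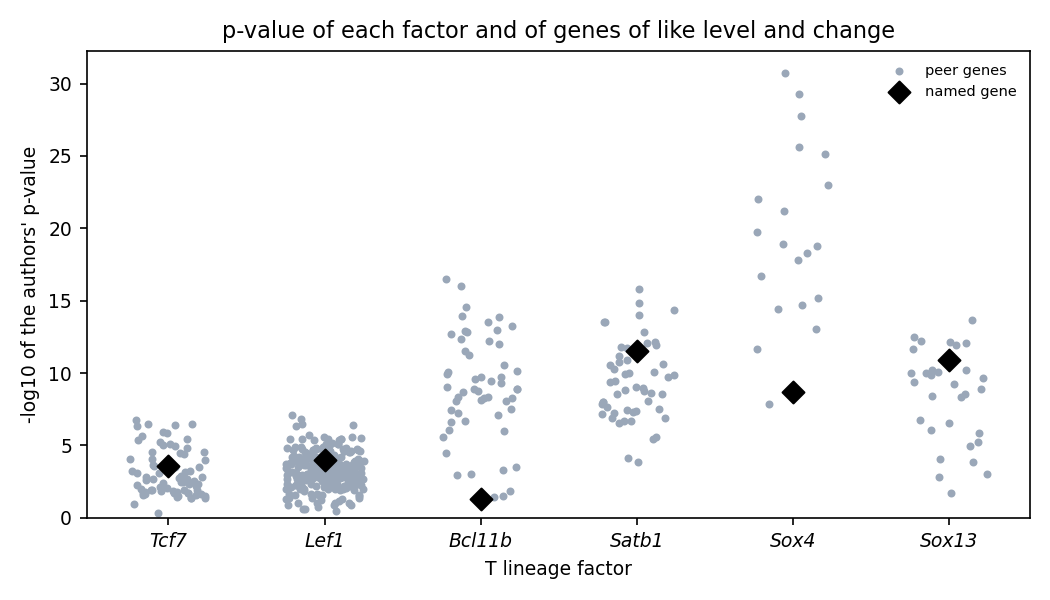
Minus log10 of the authors' p-value for 6 of the factors (black diamonds) and for genes with a like mean (within 1.5-fold) and a like log2 change (within 0.15; grey points, spread sideways at random). The diamond of Bcl11b lies below all 55 of its grey points, whereas those of Tcf7, Lef1, Satb1 and Sox13 lie inside theirs.

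The paralogue Bcl11a, a factor of progenitors and B cells, fell 3.77-fold from 3525 to 936 per the authors' deposited table (authors' adjusted p = 3.42e-50). Bcl11b acts in part through the NuRD chromatin remodelling complex, and of 13 NuRD subunit genes 5 rose, 3 fell and 5 did not pass per the authors' deposited table, with a median log2 change of 0.10. Mbd2 rose 1.93-fold and the remodeller gene Chd3 rose 1.96-fold, while Mta3 fell 1.69-fold and Mta1 fell 1.65-fold per the authors' deposited table. Rbbp4 (16937 and 15319) and Chd4 (12892 and 12263) did not pass there. Among 18 genes known to rise when Bcl11b is lost in thymocytes, 12 rose, 5 fell and 1, Tyrobp, did not pass per the authors' deposited table, with a median log2 change of 1.47, although Bcl11b itself was not lower. Zbtb16, which encodes the innate factor PLZF, rose 4.06-fold from 950 to 3860 and Il2rb, a receptor chain for IL-2 and IL-15, rose 12.3-fold from 511 to 6291 per the authors' deposited table. The members of that list that fell were mostly progenitor factors, among them Sfpi1 (PU.1; 3.62-fold, from 2025 to 559) and Lyl1 (5.52-fold, from 547 to 99.1) per the authors' deposited table. Il2rb and Zbtb16 are themselves genes of innate lymphocytes, whose markers were higher in dKO as given above, and the part of those cells was not tested.

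c-Myb is a helix-turn-helix factor that sustains progenitor growth and activates recombinase genes in thymocytes. Myb showed the largest change of the 8 genes: its means were 14608 in control and 2962 in dKO per the authors' deposited table, so that dKO held 20.3% of the control level, a fall of 4.93-fold (log2 change -2.30, authors' adjusted p = 4.46e-108). Its p-value ranked 25 among all genes tested, and 0.716% of the abundant genes fell further. In its family Mybl2, a gene of dividing cells, fell 1.41-fold from 3161 to 2236 per the authors' deposited table (authors' adjusted p = 0.000133). Mybl1 was at 11.98 and 63.7 and did not pass per the authors' deposited table (authors' adjusted p = 0.0575). The Mybl1 libraries held 7.29, 9.76 and 18.9 in control and 38.9, 41.4 and 111 in dKO, so the groups did not overlap. Other genes that did not pass, such as Cd8a and Cebpa, also had groups without overlap, so this alone is no evidence of a change. With the library of size factor 1.08 left out the dKO mean of Mybl1 was 40.2. Of 11 genes activated by Myb in thymocytes, Gata3 left out, 4 rose, 6 fell and 1, Ccnb1, did not pass per the authors' deposited table, with a median log2 change of -0.84. Besides Rag2 and Myc, the receptor gene Tgfbr1 fell 1.79-fold from 3111 to 1739 per the authors' deposited table. Bcl2l1, which encodes the survival factor Bcl-xL, rose 1.71-fold from 2141 to 3658 there.

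Satb1 encodes a genome organiser that shapes chromatin in thymocytes. It had means of 3442 and 1948 per the authors' deposited table, a fall of 1.77-fold (log2 change -0.82, authors' adjusted p = 6.48e-11), and 5.69% of the abundant genes fell further.

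Sox4 and Sox13 are HMG box factors of the SOX family, and both are known for the development of gamma delta T cells that make IL-17. Sox4 had means of 2610 in control and 1067 in dKO per the authors' deposited table, a fall of 2.45-fold (log2 change -1.29, authors' adjusted p = 2.78e-08). Sox13 had means of 622 and 226 per the authors' deposited table, a fall of 2.75-fold (log2 change -1.46, authors' adjusted p = 2.33e-10). The Sox13 dKO mean resolved into 336 reads in the library of size factor 1.16, 239 in that of 1.08 and 171 in that of 1.04, or 291, 222 and 165 normalised counts (SD 63.0, n = 3). All 3 lay well under the control mean. Leaving out each dKO library in turn put the fall of Sox13 between 2.42-fold and 3.21-fold. The control mean allowed 6 different sets of whole reads, so its libraries are not given. Some of these sets hold a control library as low as 137 or 145 normalised counts, below all 3 dKO libraries. Whether the groups overlap is therefore not known, and the leave-one-out range covers the dKO side only.

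Sox5, which groups with Sox13 in the SoxD branch of the family, went the other way. It rose 6.24-fold, from 55.1 to 344 per the authors' deposited table (authors' adjusted p = 1.86e-15), with 36.1, 54.7 and 74.6 in the control libraries and 294, 339 and 398 in the dKO libraries. These groups lay far apart. The third SoxD gene, Sox6, did not pass (31.9 and 26.1 per the authors' deposited table), with overlapping libraries (20.6 to 38.9 in control and 6.92 to 48.2 in dKO). Sox12, like Sox4 a SoxC gene, did not pass (113 and 75.2 per the authors' deposited table). Its control libraries (108 to 121) and dKO libraries (54.5 to 89.3) did not overlap, which alone, as for Mybl1, is no evidence of a change. Outside Sox4 and Sox13, 10 SOX genes were tested per the authors' deposited table, of which 1 rose, 0 fell and 9 did not pass, and 7 were listed at 0 in both groups.

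**Figure D4:**
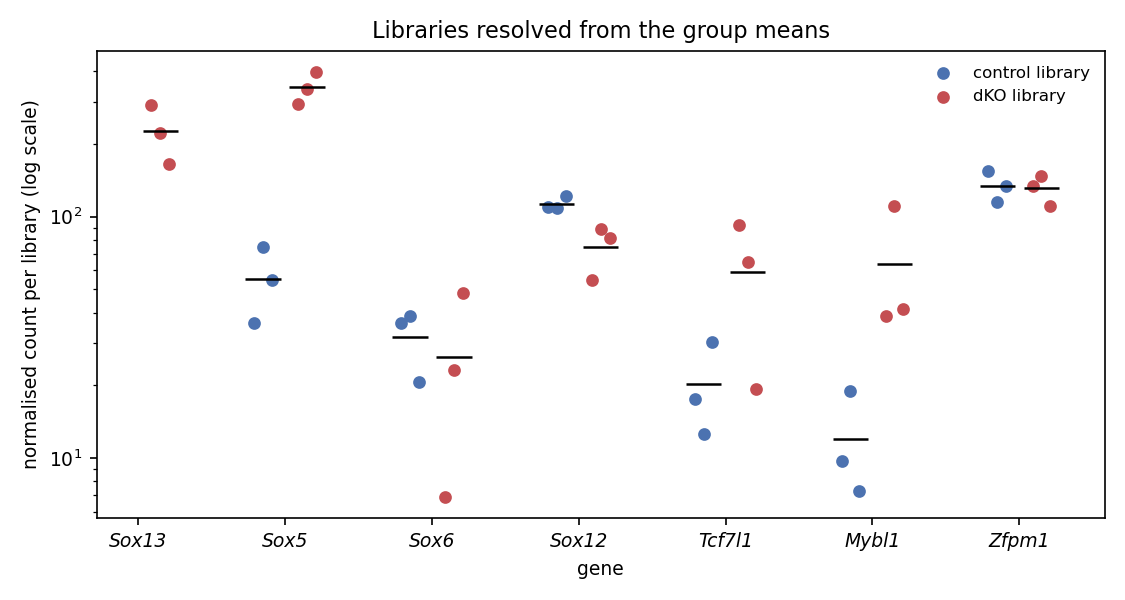
Normalised counts per library (log scale) for Sox13 in dKO and for 6 relatives of the factors whose group means resolved into whole reads; blue points are control libraries, red points dKO libraries and bars the group means. The dKO libraries of Sox5 (294 to 398) lie above its control libraries (36.1 to 74.6), and the groups of Zfpm1 overlap.

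In the gamma delta list, the genes beside Sox4, Sox13 and Tcf7 held 8 that rose, 3 that fell and 4 that did not pass among 15 tested per the authors' deposited table, with a median log2 change of 0.81. Maf, a factor of IL-17-producing gamma delta cells, rose 5.32-fold from 483 to 2571, and the scavenger receptor gene 5830411N06Rik rose 5.65-fold from 477 to 2698 per the authors' deposited table. Blk, a kinase gene of the same cells, fell 4.07-fold from 331 to 81.3, Ccr6 fell 12.3-fold from 40.2 to 3.28 and Il1r1 fell 1.74-fold from 389 to 223 per the authors' deposited table. The dKO libraries of Blk held 30.7, 87.7 and 125, all below the control mean. Il17a and Il17f were listed at 0 in both groups. Cd27 (3438 and 3349) and Etv5 (405 and 332) did not pass per the authors' deposited table. Blk, Ccr6 and Il1r1 were named after their values were seen.

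Per kb of merged exon, the order of the members by level changed between the groups. In control it ran from Tcf7 (4124 normalised counts per kb) through Gata3 (1772), Myb (1635), Bcl11b (573), Sox4 (544), Satb1 (181) and Sox13 (144) to Lef1 (93.9). In dKO Gata3 led (5772), followed by Tcf7 (3213), Bcl11b (931), Myb (332), Sox4 (222), Lef1 (141), Satb1 (102) and Sox13 (52.4). Without values per library, whether neighbours in either order differ could not be tested. Lengths came from GENCODE vM21 on GRCm38 and not from the annotation behind the counts, so this order is approximate. They merge the exons of all transcripts of a gene, from 2.625 kb for Tcf7 to 19.027 kb for Satb1, and the order depends on them. By mean count without this division, Myb (14608) led in control. Satb1 (3442 and 1948) then lay above Sox4 (2610 and 1067) in both groups.

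Genes with the pattern most like a member's were found by distance between log2 means over the 2 groups, which is all these data offer. The nearest lay 0.0594 from Tcf7 (Snrpb), 0.0357 from Lef1 (Mynn), 0.0757 from Gata3 (Anxa6) and 0.0724 from Bcl11b (Iqgap2). They lay 0.0753 from Satb1 (Prkcd), 0.0954 from Sox4 (Pus7) and 0.0538 from Sox13 (Pik3ap1). Myb had no close match, with Idh2 nearest at 0.533, followed by Myc at 0.686. Second in line were Rpl23 for Tcf7, Itgb7 for Gata3, Psme2 for Bcl11b, Dlat for Satb1, Ralgps2 for Sox4 and Mgat4b for Sox13.

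The tested protein-coding genes on either side of each member on its chromosome were also read. Of these 16 neighbours 4 were called, each of them lower beside a member that was lower per the authors' deposited table. Both neighbours of Myb were among them: Ahi1 fell from 737 to 459 (authors' adjusted p = 0.0197) and Hbs1l from 3641 to 2718 (authors' adjusted p = 0.00095) per the authors' deposited table. Vdac1, beside Tcf7, fell from 10547 to 7408, and Tbc1d5, beside Satb1, from 1339 to 824 per the authors' deposited table. Over all genes tested, 29.0% were called in either direction and 13.8% were lower, and among the abundant genes 19.0% were lower. Some neighbours had very few reads, such as Olfr1373 (1.30 and 0) and Nrsn1 (0 and 2.25), and could hardly be called. Whether neighbours fell more often than other genes was not tested. Neither neighbour of Gata3 passed: Celf2 was at 7578 and 8624 and Taf3 at 1160 and 1132 per the authors' deposited table. The neighbours were examined after the values of the members were seen.

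Set beside other factor lists, the members lay between extremes. Of 15 innate lymphoid fate factors outside the members, 13 rose, 0 fell and 2 (Prdm1 and Zfp105) did not pass per the authors' deposited table, with a median log2 change of 1.39. Rora, an ILC2 factor, rose 5.71-fold from 567 to 3234 and Tox 2.62-fold from 2018 to 5290 per the authors' deposited table. Among 26 wider T lineage factors, per the authors' deposited table, 14 rose, 7 fell and 5 were not called; their median was 0.38. The 7 include the deleted Tcf3 and Tcf12 and also Notch1 (5.56-fold), while Ikzf3 rose 4.83-fold per the authors' deposited table. Foxp1 (4858 and 4312) and Nfatc1 (3581 and 5040) did not pass there. Among 18 progenitor factors that are normally silenced at commitment, 12 fell, 3 rose (Meis1, Gata2 and Irf8) and 3 did not pass per the authors' deposited table, with a median of -1.69. Nfe2, an erythroid and megakaryocyte factor, fell 5.91-fold from 4396 to 744 and Mycn 3.16-fold from 7132 to 2259 per the authors' deposited table. Hlf (738 and 1081) was the most abundant of those that did not pass there. These lists share members with each other and were not tested against the 8 genes.

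**Figure D5:**
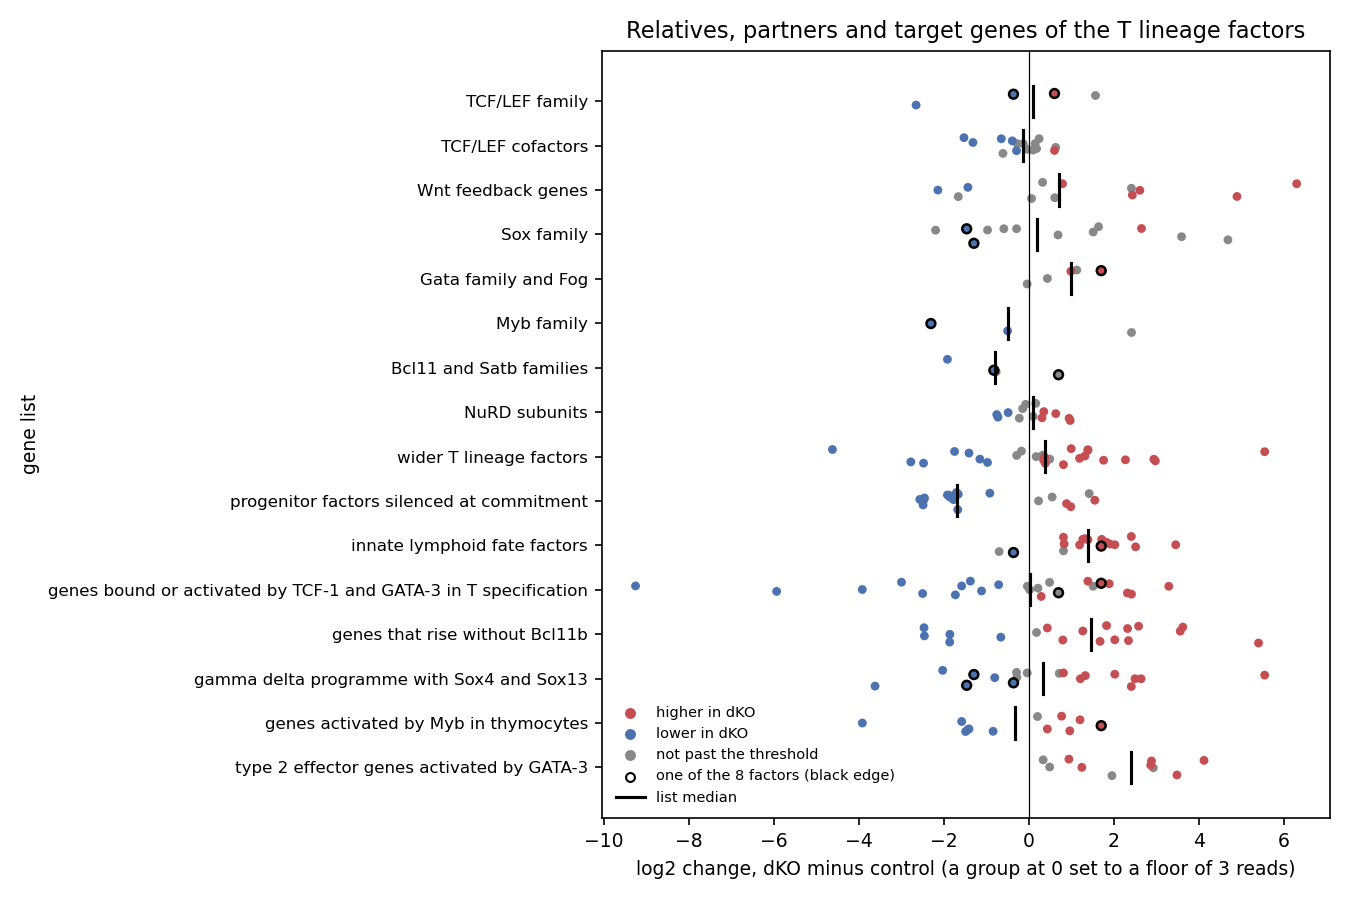
Log2 change (dKO minus control, with a group at 0 set to a floor of 3 reads) of each tested gene in 16 lists of relatives, partners and known target genes; colours give the authors' calls, black edges mark the 8 factors and bars the list medians. The medians run from -1.69 for progenitor factors to 2.41 for type 2 effector genes.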

How the data were processed

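One series-level table was used. Per the submitters' processing notes, the reads went through bcl2fastq (1.8.4), TopHat2 (2.0.14) and DESeq (version 2) with build mm9, with no role stated for each. The read counter and gene models are not given in the sources. Its signal columns, per the file headers, hold for each group the authors' mean of normalised counts over 3 libraries. Its fold ratio, p-value and adjusted p-value are the authors' own as deposited, and redoing the Benjamini-Hochberg adjustment gave the deposited values within 4.08e-07. Of 22609 genes, 6368 were at 0 in both groups and 16241 were tested. RNA came from few cells and was amplified (SMARTer kit, per the labels' protocols), so reads are not independent molecules, floors cover counting error only, and strand was not used to separate antisense genes. GENCODE lists antisense genes over exons of Gata3, Lef1, Myb, Satb1 and Sox4. The overlap was largest for Sox4, at 2616 bases of 4.795 kb of merged exon, against 128 to 1208 bases for the others. Genes on the same strand share 77 exon bases with Gata3 and 156 with Satb1. The part of these genes in the members' changes was not tested.

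No new test was made: a gene was called at the authors' adjusted p under 0.05. Folds and log2 changes were taken from the ratio of means (Python 3.11.15, numpy 2.4.6, pandas 2.3.3), with a group at 0 set to a floor of 3 reads, which is a mean of 1.21 for control and 0.963 for dKO. Group means were resolved into whole reads where 1 set of reads, weighted by size factor, matched the printed digits. On simulated data (means of 1 to 300) 100% of single solutions were right in both groups. The same size factors made and solved these means, so that outcome was fixed in advance. Error in the size factors was not tested. Resolved means above 300, such as those of Il4, Il13 and Sox5 in dKO, lie outside the simulated range. Of 200 random values between 100 and 300, 4% in control and 7.5% in dKO had a solution. The members and all lists were chosen with earlier results of these data known. Genes were named by rule: the members, the deleted genes, up to 4 called genes per list by adjusted p and its 2 most abundant uncalled genes, and the 2 nearest genes per member. Spi1 was matched through its older name Sfpi1, and Hobit and Zfp683 found no match. Some genes that the rule names are not reported here. Alternatives were the threshold (0.01, 0.1), readjustment over genes with a mean of at least 10 or 100, a 2-fold minimum, 2 scalings and pseudocounts of 1 and 10.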

Additional observations from a re-analysis of the deposited data

How the results depend on the processing

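The counts of 2 members higher and 5 lower held at adjusted p thresholds of 0.01 and 0.1 and after readjustment over genes with a mean of at least 10 or 100. Bcl11b stayed outside 0.05 throughout, with an adjusted p of 0.109 over genes with a mean of at least 10 and 0.0994 over those of at least 100. With at least 2-fold change required, 1 member was higher (Gata3) and 3 were lower (Myb, Sox4 and Sox13), and the share of all genes called went from 29.0% to 12.6%; fewer genes can meet both criteria by construction. Of 35 recomputed log2 changes of the members (2 scalings, 2 pseudocounts and the left-out dKO libraries of Sox13), 35 kept their direction and 0 reversed. A pseudocount added to both means cannot reverse a direction. The scalings shifted log2 changes by less than the smallest member change, that of Tcf7 (-0.36), so they could not reverse one either. The count is therefore no measure of robustness for those settings. Equal group sums shifted all log2 changes by 0.0819, and the median of genes with a mean of at least 100 was 0.0055. For Sox13, log2 changes without each dKO library ran from -1.68 to -1.28. No paired analysis was possible because the table holds group means, which carry no replicate number. For the same reason no adjusted p could be recomputed without a library, and no library of the other members could be left out. The deposited p-values hold depth and spread between libraries together, and the part of each in genes of low mean that did not pass, such as Tcf7l1 and Mybl1, was not tested.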
